A study of Mus musculus with 23 samples.

Results

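The 8 genes described here handle cholesterol in macrophages or are switched on by the liver X receptors (LXRs): Nr1h3, Abca1, Abcg1, Apoe, Pltp, Mylip, Soat1 and Srebf1. They were taken from the deposited count table by gene name, 8 of the 54532 genes it lists; each name stood on 1 row, and all 8 passed the filter on low counts that left 16545 genes for testing. Poly(A) RNA was sequenced from cardiac cells of C57BL/6 mice that had been sorted magnetically as lacking Ly6G, a neutrophil antigen, and carrying CD11b, an integrin of myeloid cells. Both genotypes carried Smad7 alleles flanked by loxP sites (Smad7fl/fl). MyS7KO mice also carried a Cre recombinase driven by the LyzM promoter, which is active in myeloid cells, so that Smad7, an inhibitor of TGF-beta signalling, is deleted there; S7fl/fl mice were their littermates without Cre. Hearts were taken at baseline, without infarction, or 3 or 7 days after the left anterior descending coronary artery had been tied off for good. The groups held 3 MyS7KO and 3 S7fl/fl libraries at baseline, 5 MyS7KO and 5 S7fl/fl libraries at day 3, and 4 MyS7KO and 3 S7fl/fl libraries at day 7. Which part of Smad7 is removed is not given in the labels, nor whether each library is its own heart. The p-values below therefore rest on the scatter of the libraries at hand, which may be partly technical.

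As background, macrophages that clear dying cells take up large amounts of cholesterol and have no means to break its ring down. Oxysterols made from the excess bind LXRs, nuclear receptors that sit on DNA with a partner receptor, RXR, and raise the genes for export (ABCA1, ABCG1), for lipoprotein building (APOE, PLTP), for removal of the LDL receptor (MYLIP, also called IDOL) and for fatty acid synthesis (SREBF1). SOAT1 stores surplus cholesterol as esters in lipid droplets. After infarction, macrophages of the heart engulf dead cardiomyocytes and neutrophils.

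The libraries held 15479402 to 23884938 counts over genes. Levels are CPM, counts scaled to library size by TMM, unless FPKM, which also divides by gene length, is named; errors of levels are SD over libraries, and log2 changes are given with their standard error (SE). Adjusted p-values are from edgeR's quasi-likelihood test with Benjamini-Hochberg adjustment over the 16545 genes, and "called" means that this value was under 0.05. Smad7 read 19.7 to 48.6 CPM in MyS7KO and 53.0 to 61.1 in S7fl/fl libraries at baseline, 10.5 to 19.9 and 30.3 to 42.0 at day 3, and 16 to 33.3 and 57.4 to 70.1 at day 7. It was thus lower in every MyS7KO library of each time, although its difference was not called (edgeR adjusted p = 0.999, 0.11 and 0.0702). Macrophage markers (10 genes, none at 0 in a group) summed to 10500 to 18700 CPM over all libraries, and neutrophil markers (11 genes, with at most 1 at 0 in a group) to 127 to 332 CPM. By Xist and Y-linked reads, all 4 MyS7KO libraries of day 7 were female and all 3 S7fl/fl libraries male. A difference of sex and one of genotype cannot be told apart there. At baseline 1 MyS7KO library was female and 2 male, and 2 S7fl/fl libraries were female and 1 male. At day 3 these were 3 and 2 in MyS7KO and 2 and 3 in S7fl/fl. Comparisons of day 7 with an earlier time therefore also differ in sex make-up within each genotype.

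The cholesterol genes differed between times after infarction, and no difference between the genotypes was called. At day 3 against baseline, 6 were called higher and 2 lower in MyS7KO hearts, where 65.9% of all tested genes were called (30.7% higher, 35.2% lower). In S7fl/fl hearts 5 were higher, 2 lower and 1 not called, against 64.0% of all genes (29.9% higher, 34.1% lower). The median change of the 8 was 1.05 in MyS7KO and 1.19 in S7fl/fl (log2), while that of all tested genes was -0.10 and -0.06. With so many genes called, a high share of calls is no mark of these 8; what the values show is which of them moved, which way and when.

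Day 7 against baseline gave 6 higher, 1 lower and 1 not called in each genotype, where 44.0% of all genes were called in MyS7KO (22.2% higher, 21.8% lower) and 50.2% in S7fl/fl (24.8% higher, 25.4% lower). Between day 7 and day 3, 4 were higher, 3 lower and 1 not called in MyS7KO, against 39.6% of all genes (20.5% higher, 19.1% lower). In S7fl/fl 3 were higher, 1 lower and 4 not called, against 21.7% of all genes (11.5% higher, 10.1% lower). The day 3 and day 7 comparisons share their baseline libraries. By group means the 8 followed 3 courses. Nr1h3, Soat1 and Srebf1 peaked at day 3 and stayed above baseline at day 7. Abca1, Abcg1 and Apoe had their highest means at day 7, and Mylip and Pltp dipped at day 3. The step between day 7 and day 3 was not called for Abca1 in either genotype, nor for Abcg1, Soat1 and Srebf1 in S7fl/fl. The tissue was bulk sorted cells, so fewer cells of a type and less RNA per cell cannot be told apart.

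**Figure D1:**
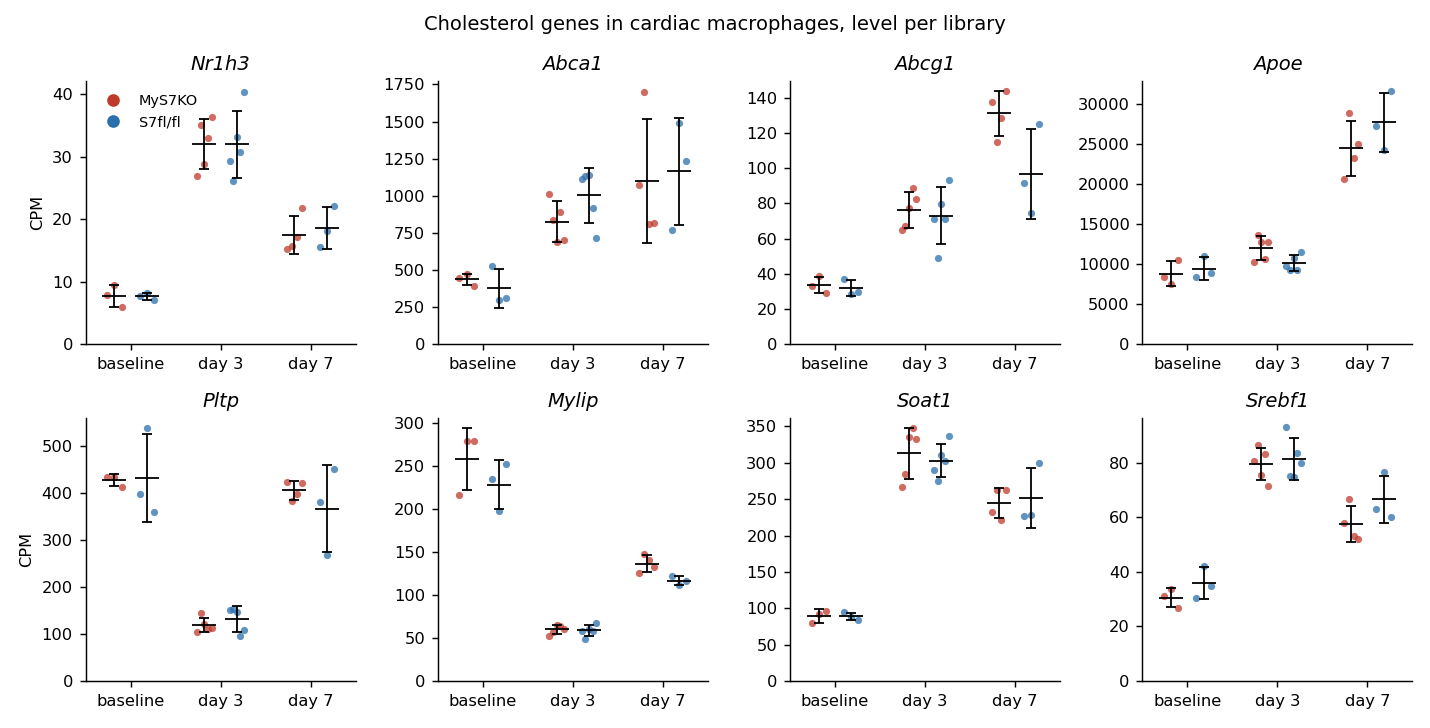
Level of each gene in CPM (y axes, linear from 0) at baseline, day 3 and day 7 (x axes), MyS7KO in red and S7fl/fl in blue; points are libraries, the bar and whiskers are mean and SD (n = 3, 3, 5, 5, 4 and 3). By group mean, Nr1h3, Soat1 and Srebf1 are highest at day 3, Abca1, Abcg1 and Apoe at day 7, and Mylip and Pltp lowest at day 3, in both genotypes.

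**Figure D2:**
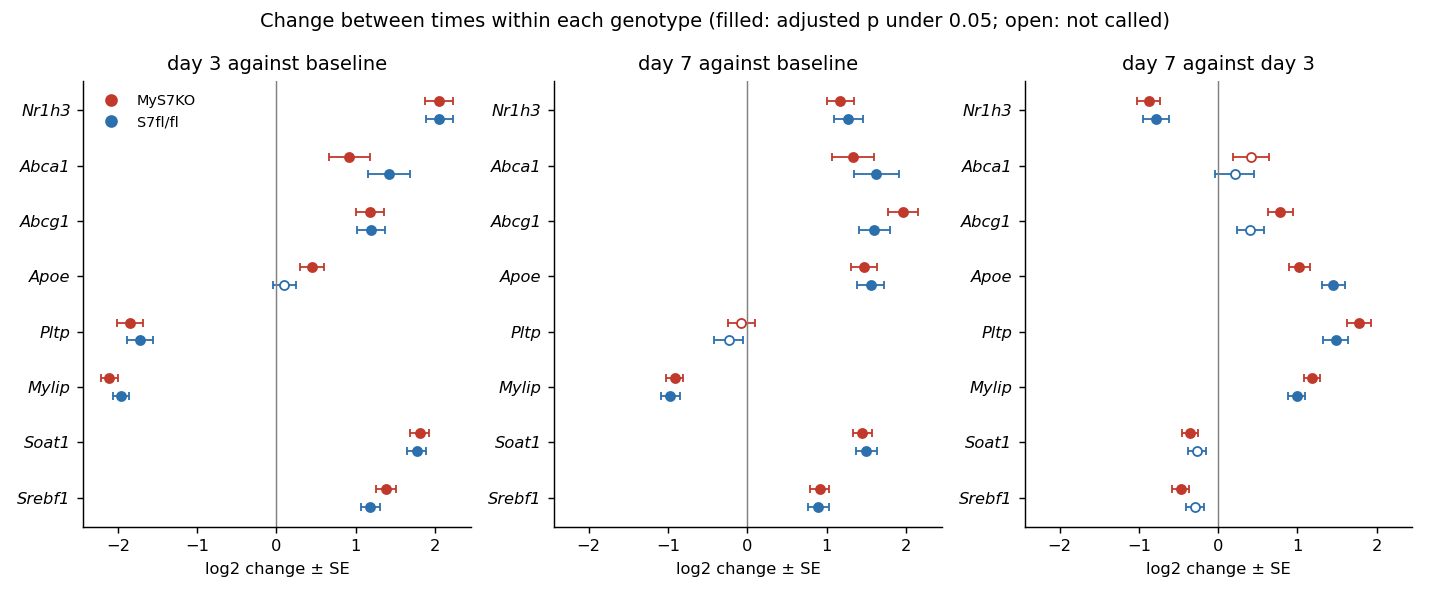
Log2 change with SE (x axis) of the 8 genes for the 3 pairs of times, MyS7KO (red) above S7fl/fl (blue); filled points passed an adjusted p under 0.05. Changes of the genotypes lie on the same side of 0 for every gene and pair of times, from -2.11 (Mylip, day 3 against baseline, MyS7KO) to 2.06 (Nr1h3, day 3 against baseline, S7fl/fl).

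Nr1h3 (ENSMUSG00000002108, chromosome 2, 91184061 to 91202834, minus strand) encodes LXR-alpha, the receptor itself. At baseline it read 7.83, 9.42 and 5.94 CPM in MyS7KO and 7.71, 8.25 and 7.09 CPM in S7fl/fl libraries. At day 3 the MyS7KO libraries read 27.0, 35.0, 28.9, 33.1 and 36.4 CPM and the S7fl/fl libraries 29.2, 26.1, 33.2, 30.8 and 40.4 CPM. By day 7 these were 15.2, 15.6, 17.1 and 21.8 CPM in MyS7KO and 15.5, 18.0 and 22.1 CPM in S7fl/fl. No library of one time overlapped with another time, and the genotypes overlapped at each. The gene rose 4.15-fold at day 3 over baseline in MyS7KO (log2 2.05 ± 0.175, edgeR adjusted p = 1.13e-09) and 4.16-fold in S7fl/fl (log2 2.06 ± 0.174, adjusted p = 1.22e-09), the largest rises among the 8 genes in both genotypes. At day 7 it was still 2.26-fold and 2.42-fold above baseline (adjusted p = 1.25e-05 in MyS7KO and 6.86e-06 in S7fl/fl), having fallen by 0.88 and 0.78 (log2) against day 3 (adjusted p = 5.75e-05 in MyS7KO and 0.00121 in S7fl/fl).

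Its sister receptor LXR-beta, encoded by Nr1h2 and found in most tissues, was looked up after the values of Nr1h3 had been seen. Nr1h2 averaged 28.1 ± 1.47, 27.1 ± 1.61 and 28.1 ± 0.789 FPKM in MyS7KO at baseline, day 3 and day 7 (n = 3, 5 and 4), and 28.5 ± 3.04, 26.8 ± 1.72 and 28.1 ± 1.39 FPKM in S7fl/fl (n = 3, 5 and 3). Nr1h3 averaged 3.07 ± 0.681, 12.7 ± 1.68 and 6.88 ± 1.13 FPKM in MyS7KO and 3.03 ± 0.256, 12.5 ± 2.22 and 7.23 ± 1.25 FPKM in S7fl/fl at these times. Per length, then, LXR-beta was the more abundant receptor transcript at every time, and the gap was narrowest at day 3. None of the 6 comparisons between times called Nr1h2 (log2 -0.08 to 0.08, edgeR adjusted p = 0.384 to 0.965). Of the RXR partners, also looked up afterwards, Rxra was not called at either day against baseline (log2 -0.23 and 0.22 in MyS7KO, -0.22 and 0.23 in S7fl/fl at day 3 and day 7). Rxrb rose at day 7 over baseline by a log2 of 0.47 in MyS7KO and 0.39 in S7fl/fl (adjusted p = 0.00127 and 0.00767).

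Abca1 (ENSMUSG00000015243, chromosome 4, 53030787 to 53159895, minus strand) encodes the transporter that hands cholesterol and phospholipid to lipid-poor apolipoproteins. LXR with RXR binds pairs of AGGTCA sites spaced by 4 bases (DR4), so the RefSeq promoter windows of the genes (build GRCm38.p6, 250 bases before to 50 after a transcription start) were searched on both strands for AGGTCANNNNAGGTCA with up to 3 mismatches outside the N positions. Windows were found for 7 of the 8 genes (12 windows in all, with several starts for some), not for Abcg1. Of these, 2 windows held a match, that of Abca1 and that of the most downstream Srebf1 start, where 21.9% of all 32851 promoter windows did; with up to 2 mismatches none of the 12 and 3.02% of all windows did. These shares make a DR4-like stretch a common feature, so the match itself sets the genes apart from nothing.

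The letters of the matches are shown because they are nearly the same in the export gene and in the lipogenic regulator. Both read the motif on the strand opposite to the gene, 67 to 52 bases before the start of Abca1 (window chr4:53159846-53160145, minus strand) and 182 to 167 bases before that of Srebf1 (window chr11:60210422-60210721, minus strand). Capitals mark the match in each window, written 5′ to 3′ on the strand of the gene, where it appears as the reverse complement of the motif.
Abca1: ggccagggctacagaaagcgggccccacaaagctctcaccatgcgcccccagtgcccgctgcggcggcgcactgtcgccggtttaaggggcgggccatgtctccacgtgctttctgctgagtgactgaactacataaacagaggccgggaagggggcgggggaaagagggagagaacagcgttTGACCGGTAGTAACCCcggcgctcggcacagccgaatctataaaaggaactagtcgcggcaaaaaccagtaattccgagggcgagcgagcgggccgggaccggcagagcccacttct
Srebf1: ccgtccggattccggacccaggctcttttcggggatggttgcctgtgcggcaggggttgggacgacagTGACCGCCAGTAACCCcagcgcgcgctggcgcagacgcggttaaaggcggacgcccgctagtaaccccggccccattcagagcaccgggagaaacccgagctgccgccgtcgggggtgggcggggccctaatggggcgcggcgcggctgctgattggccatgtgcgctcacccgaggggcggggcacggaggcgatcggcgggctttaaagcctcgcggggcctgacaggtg

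In the motif's direction the matches read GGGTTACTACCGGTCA in Abca1 and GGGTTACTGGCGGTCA in Srebf1. Their shared letters, GGGTTACTNNCGGTCA, occurred on either strand in 3 of the 32851 windows (0.00913%), and the only other was Fasn, which encodes fatty acid synthase and is a textbook LXR and SREBP-1c target in mice. The shared letters were taken from Abca1 and Srebf1 themselves, so those matches are no test, and Fasn was named after it was seen. The Fasn stretch lies 225 to 210 bases before its start (window chr11:120824498-120824797, minus strand) and has the same letters as that of Abca1.
Fasn: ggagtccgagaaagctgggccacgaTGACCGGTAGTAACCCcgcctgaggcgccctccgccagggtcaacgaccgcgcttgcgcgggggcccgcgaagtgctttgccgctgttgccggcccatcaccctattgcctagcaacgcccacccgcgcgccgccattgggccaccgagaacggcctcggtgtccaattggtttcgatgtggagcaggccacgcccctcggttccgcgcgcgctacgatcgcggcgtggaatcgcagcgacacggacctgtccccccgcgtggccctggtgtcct

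The 3 genes with this stretch did not change by the same amount. Fasn rose 1.40-fold at day 3 over baseline in MyS7KO (log2 0.48 ± 0.158, edgeR adjusted p = 0.0101) and 1.33-fold in S7fl/fl (log2 0.42 ± 0.157, adjusted p = 0.0249), and its day 7 level was not called against baseline (log2 0.01 in MyS7KO and 0.05 in S7fl/fl). A match is a description of letters, and no binding was measured.

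Abca1 read 443, 472 and 395 CPM in MyS7KO and 525, 295 and 308 CPM in S7fl/fl libraries at baseline. At day 3 it read 1015, 837, 687, 892 and 699 CPM in MyS7KO and 1113, 1133, 1142, 921 and 716 CPM in S7fl/fl. At day 7 these were 1071, 1701, 812 and 815 CPM in MyS7KO and 773, 1488 and 1235 CPM in S7fl/fl. Every infarct library lay above every baseline library, whereas the day 7 libraries were scattered from below the day 3 mean to above its highest value. The rise at day 3 over baseline was 1.89-fold in MyS7KO (log2 0.92 ± 0.256, edgeR adjusted p = 0.00349) and 2.67-fold in S7fl/fl (log2 1.42 ± 0.262, adjusted p = 7.85e-05). At day 7 it was 2.52-fold in MyS7KO (log2 1.33 ± 0.269, adjusted p = 0.000441) and 3.10-fold in S7fl/fl (log2 1.63 ± 0.284, adjusted p = 7.79e-05). The change between day 7 and day 3 was not called (log2 0.41 ± 0.226 in MyS7KO and 0.21 ± 0.246 in S7fl/fl, adjusted p = 0.156 and 0.587), and Abca1 had the largest SE of the 8 genes in all of these comparisons.

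Abcg1 (ENSMUSG00000024030, chromosome 17, 31057698 to 31115777, plus strand) encodes the transporter that passes cholesterol to mature high-density lipoprotein. It read 32.9, 38.6 and 29.2 CPM in MyS7KO and 37.0, 28.7 and 29.8 CPM in S7fl/fl libraries at baseline. At day 3 the values were 64.9, 67.1, 77.6, 88.6 and 82.4 CPM in MyS7KO and 71.3, 49.2, 79.6, 71.3 and 93.3 CPM in S7fl/fl. At day 7 they were 137, 115, 128 and 144 CPM in MyS7KO and 91.3, 74.5 and 125 CPM in S7fl/fl. The MyS7KO libraries climbed in 2 separate steps, while the day 7 and day 3 libraries of S7fl/fl overlapped. At day 3 the rise over baseline was 2.27-fold in MyS7KO (log2 1.18 ± 0.179, edgeR adjusted p = 5.65e-06) and 2.29-fold in S7fl/fl (log2 1.19 ± 0.179, adjusted p = 5.1e-06). Day 7 stood 3.90-fold above baseline in MyS7KO (log2 1.97 ± 0.189, adjusted p = 3.67e-08) and 3.04-fold in S7fl/fl (log2 1.60 ± 0.195, adjusted p = 8.55e-07). The further step between day 7 and day 3 was called in MyS7KO (1.72-fold, log2 0.78 ± 0.155, adjusted p = 0.000339) and not in S7fl/fl (log2 0.41 ± 0.168, adjusted p = 0.0866), and the test of the difference between these steps did not pass (log2 0.38 ± 0.230, adjusted p = 0.549). In S7fl/fl the step passed without day 3 replicate 5 (adjusted p = 0.0317) or day 7 replicate 3 (0.0277), and under limma-voom (0.0235), the replicate block (0.0321) and sex as a covariate (0.0499).

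Apoe (ENSMUSG00000002985, chromosome 7, 19696109 to 19699188, minus strand) encodes the apolipoprotein that macrophages secrete to accept exported cholesterol. At baseline it read 8396, 7485 and 10502 CPM in MyS7KO and 8326, 11044 and 8881 CPM in S7fl/fl libraries. At day 3 the MyS7KO libraries read 10268, 13567, 12783, 10570 and 12798 CPM and the S7fl/fl libraries 9696, 9298, 10790, 9237 and 11511 CPM. At day 7 the levels were 20646, 28879, 23248 and 24902 CPM in MyS7KO and 27185, 24271 and 31596 CPM in S7fl/fl. All 7 libraries of day 7 thus exceeded every library of the earlier times, and Apoe alone made up 2.21 to 2.72% of the counts of the MyS7KO and 2.21 to 2.90% of those of the S7fl/fl libraries. At day 7 it ranked the first to the second gene by FPKM in S7fl/fl and the second in each MyS7KO library, against ranks 4 to 6 at baseline in both genotypes.

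The rise of Apoe at day 7 over baseline was 2.78-fold in MyS7KO (log2 1.47 ± 0.161, edgeR adjusted p = 1.69e-07) and 2.94-fold in S7fl/fl (log2 1.56 ± 0.169, adjusted p = 1.4e-07). Between the infarct times, day 7 exceeded day 3 by 2.04-fold in MyS7KO (log2 1.03 ± 0.135, adjusted p = 3.39e-06) and 2.74-fold in S7fl/fl (log2 1.45 ± 0.144, adjusted p = 3.68e-07). Day 3 against baseline was called in MyS7KO (1.36-fold, log2 0.45 ± 0.150, adjusted p = 0.0117), with groups that overlapped, and not in S7fl/fl (log2 0.10 ± 0.148, adjusted p = 0.565). The MyS7KO call ended without baseline replicate 2 (log2 0.37, adjusted p = 0.0736), without the 3 day 3 libraries of mixed sex signal (log2 0.35, 0.0801) and with limma on log2(FPKM + 1) (log2 0.45, 0.092). The difference between the genotypes in this step was not called either (log2 0.35 ± 0.208, adjusted p = 0.878).

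Markers of other cells moved between day 7 and the earlier times as well. The 8 fibroblast markers, none of them at 0 in a group, summed to 504 to 1050 CPM in MyS7KO and 711 to 1060 CPM in S7fl/fl at baseline, and to 546 to 1220 and 247 to 1090 CPM at day 3. At day 7 their sums were 1770 to 5080 CPM in MyS7KO and 1290 to 3400 CPM in S7fl/fl. The macrophage markers summed to 12800 to 17100 CPM in MyS7KO and 18400 to 18700 CPM in S7fl/fl at day 7, against 10500 to 14600 and 10700 to 13100 CPM at baseline. The part of these shifts in the day 7 levels of Apoe, Abca1 and Abcg1 was not tested.

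Pltp (ENSMUSG00000017754, chromosome 2, 164839518 to 164857711, minus strand) encodes phospholipid transfer protein, which remodels high-density lipoprotein. It read 434, 433 and 412 CPM in MyS7KO and 396, 537 and 360 CPM in S7fl/fl libraries at baseline. At day 3 only 105, 144, 121, 110 and 112 CPM were read in MyS7KO and 152, 154, 146, 95.6 and 108 CPM in S7fl/fl. At day 7 the levels were 422, 382, 396 and 421 CPM in MyS7KO and 381, 268 and 450 CPM in S7fl/fl. The day 3 libraries lay below all others, and the day 7 libraries overlapped with those of baseline.

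Pltp fell by 1.85 (log2, ± 0.161, edgeR adjusted p = 1.62e-09) at day 3 against baseline in MyS7KO and by 1.72 (± 0.161, adjusted p = 5.29e-09) in S7fl/fl, to levels 3.6 and 3.29 times lower. From there day 7 was 3.42-fold higher in MyS7KO (log2 1.77 ± 0.152, adjusted p = 1.85e-08) and 2.79-fold higher in S7fl/fl (log2 1.48 ± 0.161, adjusted p = 1.15e-06). Against baseline the day 7 level was not called (log2 -0.07 ± 0.171 in MyS7KO and -0.24 ± 0.183 in S7fl/fl, adjusted p = 0.749 and 0.296). In the annotation Pltp shares 1515 bases with Ctsa, the lysosomal cathepsin A gene on the opposite strand, and the labels do not state whether counting used strand. Ctsa moved the other way, by a log2 of 0.97 ± 0.113 at day 3 over baseline in MyS7KO and 1.01 ± 0.113 in S7fl/fl (adjusted p = 1.19e-07 and 7.99e-08).

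Mylip (ENSMUSG00000038175, chromosome 13, 45389742 to 45412022, plus strand) encodes a ubiquitin ligase that marks the LDL receptor for degradation. Baseline values were 216, 279 and 279 CPM in MyS7KO and 235, 198 and 253 CPM in S7fl/fl libraries. Day 3 values were 52.9, 57.0, 65.6, 64.2 and 60.1 CPM in MyS7KO and 58.7, 49.0, 60.7, 58.5 and 67.2 CPM in S7fl/fl. Day 7 values were 126, 148, 141 and 132 CPM in MyS7KO and 122, 112 and 117 CPM in S7fl/fl. The 3 times formed separate bands in each genotype, with day 7 between day 3 and baseline. Mylip had the largest fall of the 8 genes at day 3, by 2.11 (log2, ± 0.105, edgeR adjusted p = 3.66e-13) in MyS7KO and by 1.96 (± 0.105, adjusted p = 1.16e-12) in S7fl/fl, to levels 4.31 and 3.89 times lower than baseline. It was then 2.28-fold higher at day 7 than at day 3 in MyS7KO (log2 1.19 ± 0.0988, adjusted p = 1.35e-08) and 1.99-fold in S7fl/fl (log2 0.99 ± 0.106, adjusted p = 9.47e-07). Day 7 stayed below baseline, by a log2 of -0.92 ± 0.111 in MyS7KO and -0.97 ± 0.121 in S7fl/fl (adjusted p = 7.7e-07 and 9.83e-07).

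The fall of Pltp and Mylip between baseline and day 3 ran beside a drop in vascular markers between baseline and the infarct times. Only the fall was shared. Both genes were called higher at day 7 than at day 3 in each genotype, while the vascular marker sums of these 2 times overlapped. The 8 endothelial markers, none at 0 in a group, summed to 1290 to 2660 CPM in MyS7KO and 2000 to 2710 CPM in S7fl/fl at baseline, 527 to 904 and 376 to 867 CPM at day 3, and 233 to 1420 and 297 to 606 CPM at day 7. Mural markers (7 genes) summed to 1030 to 1700 and 1260 to 1830 CPM at baseline, 154 to 252 and 131 to 224 CPM at day 3, and 70.2 to 556 and 85.4 to 258 CPM at day 7. The part of these cells in the levels of Pltp and Mylip was not tested.

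Soat1 (ENSMUSG00000026600, chromosome 1, 156424525 to 156474331, minus strand) encodes the acyltransferase that esterifies cholesterol for storage. It ranged from 79.1 to 96.7 CPM in MyS7KO and from 84.1 to 94.5 CPM in S7fl/fl at baseline, from 267 to 347 and from 275 to 337 CPM at day 3, and from 222 to 263 and from 227 to 300 CPM at day 7. No infarct library came near the baseline range. The rise at day 3 over baseline was 3.5-fold in MyS7KO (log2 1.81 ± 0.119, edgeR adjusted p = 2.53e-11) and 3.41-fold in S7fl/fl (log2 1.77 ± 0.119, adjusted p = 3.57e-11). At day 7 it was 2.74-fold in MyS7KO (log2 1.45 ± 0.121, adjusted p = 2.71e-09) and 2.84-fold in S7fl/fl (log2 1.504 ± 0.127, adjusted p = 3.09e-09). The step down between day 7 and day 3 was called in MyS7KO (log2 -0.35 ± 0.102, adjusted p = 0.00784) and not in S7fl/fl (log2 -0.27 ± 0.111, adjusted p = 0.091), where it passed without day 7 replicate 4 (log2 -0.41, adjusted p = 0.0197).

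Srebf1 (ENSMUSG00000020538, chromosome 11, 60199089 to 60222581, minus strand) encodes SREBP-1, the regulator of fatty acid synthesis. It followed a flatter version of the same course. Its libraries read 26.8 to 33.6 CPM in MyS7KO and 30.4 to 42.1 CPM in S7fl/fl at baseline, 71.5 to 86.5 and 74.8 to 93.2 CPM at day 3, and 52.1 to 66.6 and 60.2 to 76.6 CPM at day 7. At day 3 Srebf1 rose 2.61-fold over baseline in MyS7KO (log2 1.38 ± 0.121, edgeR adjusted p = 1.78e-09) and 2.27-fold in S7fl/fl (log2 1.19 ± 0.120, adjusted p = 1.63e-08), and at day 7 it stood 1.88-fold above baseline in MyS7KO (adjusted p = 3.36e-06) and 1.86-fold in S7fl/fl (6.65e-06). Day 7 was below day 3 in MyS7KO (log2 -0.47 ± 0.106, adjusted p = 0.00113); in S7fl/fl this was not called (log2 -0.29 ± 0.115, adjusted p = 0.076), but passed under limma-voom (0.0253) and without day 7 replicate 3 (0.03). Srebf1 overlaps Rai1, on the opposite strand, by 109 bases, and Rai1 was not called at day 3 against baseline in either genotype (log2 -0.04 in MyS7KO and 0.08 in S7fl/fl).

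Classical monocyte markers had the same order of times as Nr1h3, Soat1 and Srebf1. Their 7 genes, none at 0 in a group, summed to 164 to 201 CPM in MyS7KO and 198 to 249 CPM in S7fl/fl at baseline, to 679 to 926 and 721 to 1840 CPM at day 3, and to 299 to 638 and 506 to 729 CPM at day 7. Their part in the levels of these genes was not tested.

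MyS7KO and S7fl/fl libraries were compared at each time to ask whether loss of Smad7 in myeloid cells altered these genes, and no difference was called in any of them. At baseline the log2 differences ran from -0.23 ± 0.130 (Srebf1) to 0.21 ± 0.277 (Abca1), at day 3 from -0.28 ± 0.214 (Abca1) to 0.25 ± 0.128 (Apoe), and at day 7 from -0.21 ± 0.119 (Srebf1) to 0.44 ± 0.178 (Abcg1). Their edgeR adjusted p-values were 0.999 at baseline, 0.982 to 0.998 at day 3 and 0.332 to 0.92 at day 7. Few genes of any kind were called by edgeR between the genotypes: 0.0121% of those tested at baseline and at day 3 and 0.0181% at day 7, with an unadjusted p under 0.05 in 375, 594 and 2173 genes; DESeq2 called 62 at day 7. Among the 8, only Abcg1 at day 7 had an unadjusted p under 0.05 (0.0228), and none was called by any alternative test, DESeq2 and limma-voom included. With standard errors of 0.094 to 0.277 on the log2 scale, small differences would not have been detectable. The Smad7 transcript itself stood at 0.673-fold, 0.42-fold and 0.375-fold of S7fl/fl in MyS7KO at baseline, day 3 and day 7. The genotypes thus differed least in it at baseline, which limits what that comparison can say about loss of Smad7.

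The genotypes came closest to separating at day 7. Abcg1 averaged 131 ± 12.5 CPM in MyS7KO and 96.9 ± 25.6 CPM in S7fl/fl (SD, n = 4 and 3), with the highest S7fl/fl library inside the MyS7KO range. Mylip averaged 137 ± 9.86 CPM in MyS7KO and 117 ± 4.92 CPM in S7fl/fl, and all 4 MyS7KO libraries lay above all 3 S7fl/fl libraries (log2 0.23 ± 0.113, edgeR adjusted p = 0.391); it was 1 of the 8 genes to do so, where 3.27% of all tested genes did. Both differences coincide with the difference of sex at that time. Tests of whether the genotype difference changed between times also called none of the 8 genes, and 0.0% of all tested genes for each pair of times (741, 862 and 1726 genes had an unadjusted p under 0.05; DESeq2 called up to 6 genes over the whole table). Apoe between day 7 and day 3 came closest (log2 -0.43 ± 0.200, edgeR adjusted p = 0.465). Its mean was higher in MyS7KO than in S7fl/fl at day 3 and lower at day 7, where the genotypes differed in sex. Macrophage marker sums did not overlap between the genotypes at day 7 (12800 to 17100 CPM in MyS7KO, 18400 to 18700 CPM in S7fl/fl), while fibroblast marker sums did. Their part in the day 7 differences of Apoe, Abcg1 and Mylip was not tested.

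**Figure D3:**
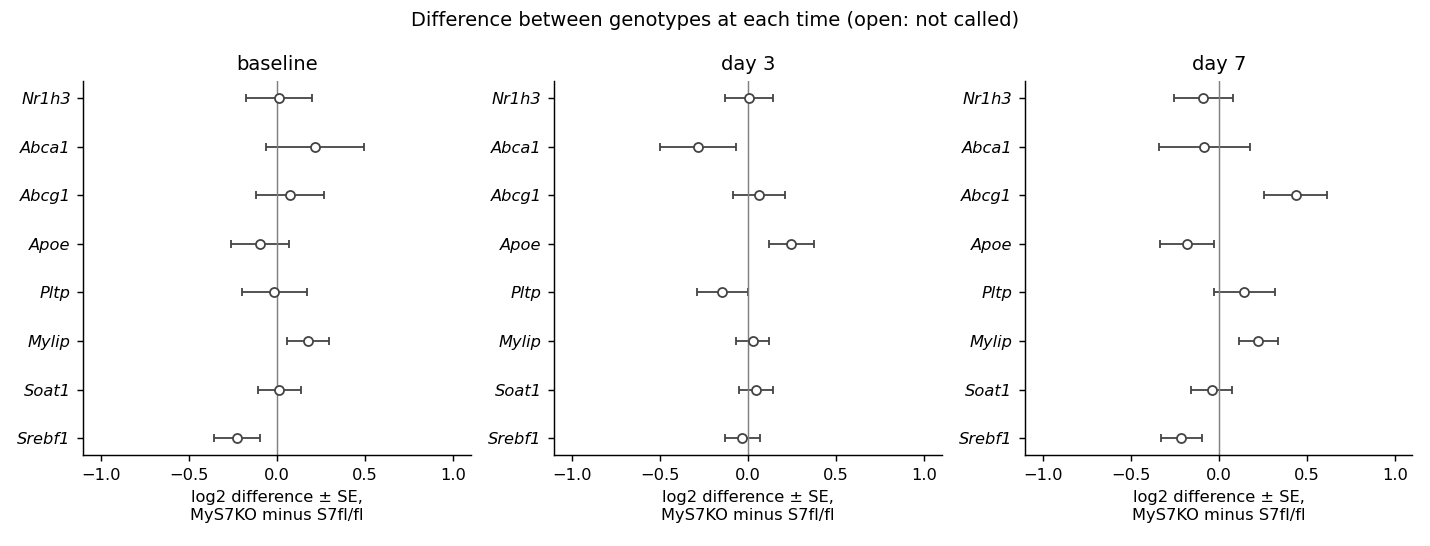
Log2 difference with SE (x axis), MyS7KO minus S7fl/fl, for the 8 genes at baseline, day 3 and day 7; open points did not pass an adjusted p under 0.05, which holds for all 24. Abcg1 at day 7 lies farthest from 0, at 0.44.

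Levels between genes were compared per length. In MyS7KO at day 7 the order by mean FPKM was Apoe (11350), Pltp (157), Abca1 (106), Mylip (42.0), Abcg1 (32.0), Soat1 (24.9), Srebf1 (10.1) and Nr1h3 (6.88). At baseline in MyS7KO it was Apoe (4114), Pltp (166), Mylip (79.8), Abca1 (42.1), Soat1 (9.14), Abcg1 (8.25), Srebf1 (5.41) and Nr1h3 (3.07). Abca1 and Mylip exchanged places between these times. In MyS7KO, Abca1 read 77.1 to 164 FPKM and Mylip 39.2 to 45.7 FPKM at day 7, whereas Abca1 read 38.1 to 45.2 FPKM and Mylip 67.2 to 86.3 FPKM at baseline. In S7fl/fl, Abca1 read 73.7 to 141 FPKM and Mylip 34.0 to 37.3 FPKM at day 7, whereas Abca1 read 28.3 to 50.7 FPKM and Mylip 60.9 to 76.5 FPKM at baseline. The ranges of the 2 genes did not overlap at either time. The receptor gene Nr1h3 had the lowest mean of the 8 at every time in both genotypes. In all 8 genes the 6 groups had the same order by CPM and by FPKM.

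**Figure D4:**
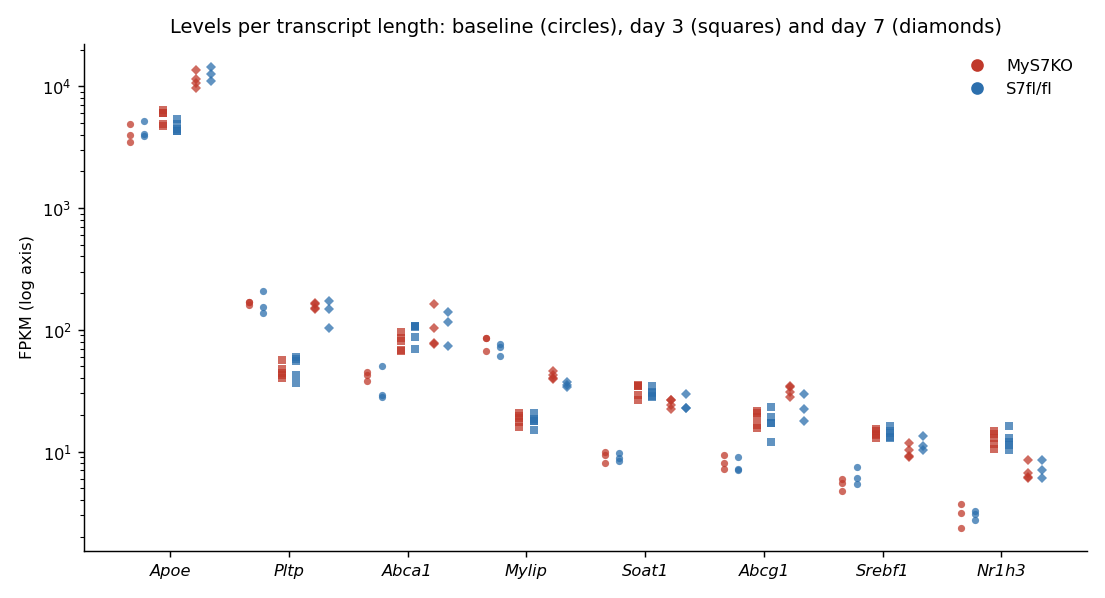
FPKM per library (y axis, log scale) of the 8 genes (x axis), at baseline (circles), day 3 (squares) and day 7 (diamonds), MyS7KO in red left of S7fl/fl in blue. Apoe lies far above the rest in every library and Nr1h3 has the lowest group means; Abca1 and Mylip exchange places between baseline and the infarct times.

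The order of the 6 groups within each gene left few neighbours apart. For Apoe the ranges of neighbouring groups overlapped up to the step between day 3 and day 7, where they did not. Abca1 and Abcg1 broke between baseline and the infarct groups, and within those every pair of neighbours overlapped. Nr1h3 had 2 such breaks, one above baseline and one between day 7 and day 3. Soat1 and Srebf1 broke above baseline, Pltp between day 3 and day 7, and Mylip between day 3, S7fl/fl at day 7, MyS7KO at day 7 and baseline.

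Genes with the most similar course were picked as the pair with the smallest root mean square difference (RMS) over the 6 centred group means of log2 CPM, among the 11790 genes whose mean log2 CPM was 1 or more. For Apoe these were Pmepa1 (RMS 0.084 log2) and Spata13 (0.091), for Abca1 Pqlc3 (0.063) and Cd300lb (0.069), and for Abcg1 Gpr137b (0.081) and Plxnc1 (0.113). Rnh1 (0.045) and Emb (0.079) came closest to Nr1h3, Slc25a20 (0.045) and Pigt (0.048) to Srebf1, and Ap3s1 (0.068) and Lat2 (0.074) to Soat1. The nearest to Mylip were Kdm6bos (0.058) and Mapk1ip1 (0.061), and to Pltp Tmem150b (0.079) and Tmem71 (0.097). None of these neighbours was another of the 8 genes. Abca1 and Abcg1, the closest in role, differed by an RMS of 0.252. Among the 11790 genes Abca1 ranked 75 in likeness to Abcg1, and Abcg1 ranked 312 in likeness to Abca1. Nearest to each other of the 8 were Nr1h3 and Soat1 (RMS 0.212). Soat1 ranked 121 for Nr1h3, and Nr1h3 ranked 190 for Soat1.

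Other genes of sterol and lipid handling were followed in 4 lists, 88 genes of which 81 were tested. Among the 18 tested LXR and RXR partners and other LXR targets, 8 were called higher and 4 lower at day 3 against baseline in MyS7KO, and 7 higher and 2 lower in S7fl/fl; the medians were 0.00 and 0.21 (log2), against -0.10 and -0.06 over all tested genes. Of all tested genes, 30.7% were called higher and 35.2% lower in MyS7KO at day 3, and 29.9% higher and 34.1% lower in S7fl/fl, and the counts of this list and of the other lists are read against these shares. At day 7 against baseline the shares were 22.2% higher and 21.8% lower in MyS7KO and 24.8% higher and 25.4% lower in S7fl/fl. At day 7, 7 were higher and 1 lower in MyS7KO and 8 higher and 1 lower in S7fl/fl, with medians of 0.29 and 0.31, against -0.01 and -0.02 over all tested genes. Arl4c, a small GTPase and LXR target, rose to 505 ± 52.3 CPM in MyS7KO at day 7, against 179 ± 15.9 CPM at baseline (2.81-fold, edgeR adjusted p = 2.51e-08), and to 639 ± 98.2 CPM in S7fl/fl, against 184 ± 35.3 CPM (3.46-fold, adjusted p = 3.09e-09). Lpcat3, which remodels membrane phospholipids, was 2.13-fold higher at day 3 than at baseline in MyS7KO (adjusted p = 3.53e-10) and 2.14-fold in S7fl/fl (3.38e-10). Smpdl3a, a phosphodiesterase gene known as an LXR target in human macrophages, was 2.71-fold and 2.36-fold higher at day 7 than at baseline (adjusted p = 3.07e-07 in MyS7KO and 3.52e-06 in S7fl/fl).

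Not every LXR target on that list rose at day 3. Mertk, the receptor for apoptotic cells and itself 1 of the 10 macrophage markers used above, fell to 126 ± 13.7 CPM at day 3, against 225 ± 8.62 CPM at baseline, in MyS7KO (log2 -0.84 ± 0.133, edgeR adjusted p = 9.19e-06). In S7fl/fl it fell to 131 ± 19.1, against 186 ± 35.1 CPM (log2 -0.51 ± 0.134, adjusted p = 0.00205). It was 2.1-fold and 1.99-fold higher at day 7 than at day 3 (adjusted p = 7.19e-07 in MyS7KO and 1.37e-05 in S7fl/fl). Against baseline, Mertk at day 7 was called higher in S7fl/fl (1.4-fold, edgeR adjusted p = 0.0109) and was not called in MyS7KO (log2 0.235 ± 0.142, adjusted p = 0.184). Lpl, lipoprotein lipase, rose at day 3 over baseline (1.83-fold in MyS7KO and 1.77-fold in S7fl/fl, adjusted p = 0.000249 and 0.000413) and was lower at day 7 than at day 3 (log2 -0.53 and -0.68, adjusted p = 0.0126 and 0.00859). The stearoyl-CoA desaturase genes parted: Scd1 fell by 1.90 (log2) in MyS7KO and by 2.27 in S7fl/fl at day 3 (adjusted p = 0.000463 and 8.62e-05), whereas Scd2, named after its values were seen, rose 2.55-fold and 2.18-fold (adjusted p = 1.56e-07 and 1.87e-06). Ppard, a fatty acid sensing receptor named in the same way, rose 1.95-fold in MyS7KO and 2.24-fold in S7fl/fl at day 7 over baseline (adjusted p = 0.000736 and 0.000154).

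Of 25 tested genes of cholesterol synthesis and SREBP-2 control, 13 were higher and 6 lower at day 3 against baseline in MyS7KO and 10 higher and 7 lower in S7fl/fl, where 65.9% and 64.0% of all tested genes were called in either direction (medians 0.36 and 0.22, log2, against -0.10 and -0.06 over all genes). At day 7 the counts were 12 and 2 in MyS7KO and 14 and 2 in S7fl/fl (medians 0.30 and 0.41). Hmgcs1, an early enzyme of the pathway, rose 1.78-fold in MyS7KO and 1.55-fold in S7fl/fl at day 3 (edgeR adjusted p = 1.3e-06 and 4.12e-05). Cyp51, lanosterol demethylase, rose 1.77-fold and 1.30-fold (1.56e-05 and 0.0182). Stard4, a cholesterol carrier, fell by 0.69 and 0.87 (log2; adjusted p = 0.000333 and 2.78e-05), Insig2, which holds back SREBP processing, by 0.50 and 0.46 (0.000311 and 0.000738), and Sc5d, a late enzyme of synthesis, by 0.53 and 0.61 (0.00227 and 0.000612). The synthesis genes named here changed less at day 3 than Abcg1 or Nr1h3.

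The list of uptake, lysosomal release, storage and export held 26 genes, all tested. At day 3 against baseline 15 were higher and 7 lower in MyS7KO and 14 higher and 7 lower in S7fl/fl, beside the same 65.9% and 64.0% called over all tested genes (medians 0.53 and 0.41, log2, against -0.10 and -0.06), and at day 7 these counts were 13 and 5 and 16 and 6 (medians 0.43 and 0.71). Nceh1, a hydrolase of cholesterol esters that opposes Soat1, rose to 279 ± 32.2 CPM in MyS7KO at day 3, against 38.8 ± 4.35 CPM at baseline (7.17-fold, edgeR adjusted p = 2.41e-12). In S7fl/fl it rose to 282 ± 26.7 CPM, against 34.4 ± 1.81 CPM (8.20-fold, adjusted p = 1.16e-12). Lipe, another hydrolase of cholesterol esters, named after its values were seen, fell at day 3 by 1.16 (log2) in MyS7KO and by 1.41 in S7fl/fl (adjusted p = 4.87e-05 and 5.11e-06). Osbpl8, an oxysterol-binding protein family member, rose 4.83-fold and 5.59-fold at day 3 (adjusted p = 2.18e-10 and 7.55e-11).

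Cyp27a1, the sterol 27-hydroxylase that makes an LXR ligand, was also lowest at day 3, as Pltp and Mylip were. It averaged 24.02 ± 2.20 CPM at day 3 in MyS7KO, against 138 ± 36.3 CPM at baseline (5.74 times lower, edgeR adjusted p = 1.88e-13), and 22.6 ± 2.27 in S7fl/fl, against 132 ± 7.24 CPM (5.87 times lower, adjusted p = 1.85e-13). By day 7 it was 3.34-fold and 3.61-fold higher than at day 3 (adjusted p = 6.07e-10 in MyS7KO and 5.93e-10 in S7fl/fl). Cd36, a scavenger receptor also found on endothelial cells, fell by 1.42 (log2) in MyS7KO and by 1.62 in S7fl/fl at day 7 against baseline (adjusted p = 8.24e-08 and 4.35e-08). Vldlr, a lipoprotein receptor, read 0.062 to 0.844 CPM at day 3, against 3.02 to 4.28 CPM at baseline, in MyS7KO, and 0.114 to 0.518 CPM, against 3.59 to 4.87 CPM, in S7fl/fl (adjusted p = 8.82e-07 and 6.37e-08). These falls ran beside the drop in endothelial and mural markers given above, and their part in them was not tested.

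Most of the fatty acid synthesis genes called at day 3 were lower than at baseline, while Srebf1 was higher. Of 12 tested, 2 were higher and 7 lower at day 3 against baseline in MyS7KO and 3 higher and 7 lower in S7fl/fl, with medians of -0.51 and -0.55 (log2), against -0.10 and -0.06 over all tested genes. Of all tested genes, 35.2% were called lower in MyS7KO and 34.1% in S7fl/fl. At day 7, 1 was higher and 4 lower in MyS7KO and 3 higher and 5 lower in S7fl/fl (medians -0.18 and -0.46). Acly, which supplies acetyl-CoA, rose 1.27-fold in MyS7KO and 1.48-fold in S7fl/fl at day 3 (edgeR adjusted p = 0.00493 and 5.72e-05). Acaca, the cytosolic acetyl-CoA carboxylase, rose in S7fl/fl (1.48-fold, adjusted p = 0.00135), with a log2 difference of 0.29 in MyS7KO that did not pass (0.0738). Fads1, a desaturase of polyunsaturated fatty acids, was 1.48-fold and 1.57-fold higher at day 7 than at day 3 (adjusted p = 4.04e-05 and 6.02e-05). Acacb, the mitochondrial carboxylase typical of heart muscle, fell to 2.99 ± 0.636 CPM at day 3 in MyS7KO, against 20.8 ± 10.01 CPM at baseline, and to 2.46 ± 0.883, against 23.2 ± 3.92 CPM, in S7fl/fl (adjusted p = 7.09e-06 and 1.62e-06). Fads2 fell by 1.36 and 1.79 (log2) and Acss2, an acetyl-CoA synthetase, by 1.18 and 1.54 (adjusted p = 6.8e-06 and 1.71e-07 for Fads2, 7.14e-06 and 2.04e-07 for Acss2). Cardiomyocyte markers, 10 genes of which none was at 0 in a group, summed to 16.8 to 36.0 CPM in MyS7KO and 13.6 to 30.6 CPM in S7fl/fl at day 3, against 82.7 to 105 and 97.3 to 128 CPM at baseline; their part in these falls was not tested. Between the genotypes, no gene of the 4 lists was called at any time (lowest edgeR adjusted p = 0.266).

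**Figure D5:**
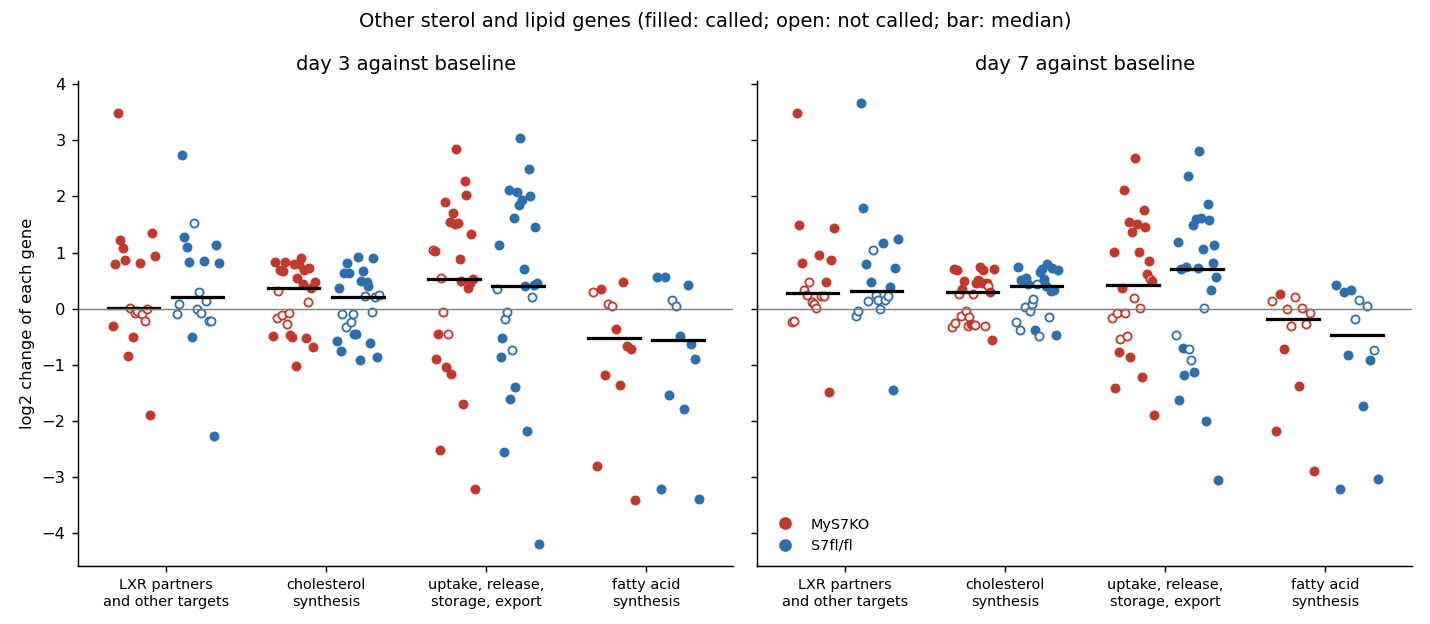
Log2 change of each tested gene (y axis) of the 4 sterol and lipid lists (x axis), at day 3 and day 7 against baseline, MyS7KO in red left of S7fl/fl in blue; filled points were called and bars are medians. The medians of fatty acid synthesis lie below 0 (-0.51 and -0.55 at day 3), those of uptake, release, storage and export above it (0.53 and 0.41).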

How the data were processed

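Poly(A) RNA of 23 libraries in 6 groups of genotype and time was analysed. Per gene, the authors deposited whole read counts, used as they stand; a second deposited table holds the authors' FPKM, which on 8282 genes with at least 100 counts equalled count over gene length times 1 constant per library (largest deviation 5.11e-13%). HTSeq 0.6.1, TopHat2 2.0.9 and Cufflinks 2.1.1 are named in the submitters' processing notes, as are the builds GRCm38.p6 and mm10, with no role for any; strandedness is not given in the sources used here, so antisense overlaps cannot be separated. Some gene names (103) stand on more than 1 row; none of the 8 does.

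The test was the quasi-likelihood test of edgeR 4.0.16 (with limma 3.58.1 in R 4.3.3) on TMM-scaled counts after filterByExpr on the 6 groups, with robust fits, all 23 libraries in 1 model and each group its own coefficient, two-sided p-values adjusted by Benjamini-Hochberg over the genes tested. The 12 comparisons were 3 of genotype, 6 of times within a genotype and 3 of the genotype difference between times. Alternatives were RLE scaling, no filter, DESeq2 1.42.0, limma-voom with sample weights, separate fits of each comparison's own groups, limma on log2(FPKM + 1) and log2(FPKM + 0.1), the replicate block, sex as a covariate, removal of 3 day 3 libraries with a minor sex signal over 2%, and each library left out in turn. The labels do not say whether a replicate number marks a shared animal, litter or day, so the main model held no replicate block. Deviations of MyS7KO and S7fl/fl libraries with the same number and time correlated at -0.30 to 0.225. In 4 of these 10 pairs the same number gave the highest correlation for the MyS7KO library, and pairing was not tested. Libraries of a group differed beyond sampling noise: chi-square over degrees of freedom was 8.47 to 50.5 in the 35 pairs within groups.

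The 8 genes, the 4 pathway lists, the 14 marker lists and the tests were chosen with earlier results of these data known. Named beside the 8 were Smad7, up to 3 higher and 3 lower genes of lowest p per pathway list over the 6 comparisons of times, and the 2 genes most like each of the 8. A gene that this rule names is not reported here. Ctsa and Rai1 were named because they overlap Pltp and Srebf1 in the annotation. Other genes named outside this rule are marked as chosen after their values were seen. No fold is given for a gene with 3 or fewer counts in any library of its lower group. Promoters are RefSeq sequences of GRCm38.p6; overlaps were read from GENCODE vM21.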

Additional observations from a re-analysis of the deposited data

How the results depend on the processing

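Of 1976 values of the 8 genes recomputed under the alternatives, 0 reversed a called change. Of the 40 called values, 39 stayed called under every alternative, in the same direction; the exception is Apoe at day 3 against baseline in MyS7KO (log2 0.45, edgeR adjusted p = 0.0117), which also ended with limma on log2(FPKM + 0.1) (adjusted p = 0.11) and on log2(FPKM + 1) without a filter (0.253), besides the settings given above. With the replicate block, 5 of the 8 genes were called between day 7 and day 3 in S7fl/fl in place of 4, and the block changed no other count. No genotype difference of the 8 genes was called in any of 448 recomputed values. Values that were not called changed sign in 96 of 1222 cases. Over the whole table, counts of genes called by genotype moved with the setting: 2 at baseline (0 with only the groups compared to 36 with limma on unfiltered FPKM), 2 at day 3 (1 to 5), and 3 at day 7 (1 to 62, the highest with DESeq2). Counts for the change of the genotype difference, 0 each, reached 12, 12 and 6. Between day 7 and day 3 in S7fl/fl 3586 genes were called, and 2225 without day 7 replicate 2. Allowing 2 mismatches in place of 3 took the promoter matches of the 8 genes to 0 of 12 windows. The 3 to 5 libraries per group limit what can be called. The lowest count of any of the 8 genes in a library was 120 (Nr1h3 at baseline), and the part of depth in the standard errors was not tested.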
